A study of Mus musculus with 6 samples.

Results

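The 10 genes described here mark the pyramidal cell fields of the hippocampus. Wfs1, Fibcd1 and Mpped1 stand for CA1, Rgs14, Pcp4, Amigo2 and Map3k15 for CA2, and Bok, Cdh24 and Ccdc3 for CA3. They were taken by symbol as listed marker genes, and the list was chosen with earlier results of these data known. On the array 11 probe sets were paired with exactly 1 of these symbols. All 10 were measured, among 22180 genes tested. Ccdc3 had 2 probe sets and the other members 1 each.

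The signals came from hippocampi of 3 Ahr-KO and 3 wild-type mice, with a whole-transcript array for each animal. The gene Ahr makes the aryl hydrocarbon receptor, a transcription factor activated by ligands. The labels give the genotypes as Ahr-KO and wildtype, and the sources used here do not give the allele, the strain, the sex or the age. They also do not say which exons are missing, or whether the gene is lost in every tissue or in some cell types only. Per the labels the hippocampi were taken from hemibrains, with no mention of separate fields and no account of how much neighbouring tissue came along. Each value is therefore read here as an average over the cells of the dissected tissue.

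Pyramidal neurons of the hippocampus lie in 1 continuous sheet that is divided into fields by cell shape, connections and gene expression. Granule cells of the dentate gyrus send mossy fibres to CA3, CA3 neurons project to CA1 through the Schaffer collaterals, and CA2 lies between them and is known for its part in social memory. Many field markers also change along the long axis of the hippocampus, from the dorsal to the ventral pole. Wfs1 is best known as a marker of dorsal CA1.

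The aryl hydrocarbon receptor with its partner ARNT binds DNA at a short core, GCGTG, and the promoters of the markers were searched for it. RefSeq promoter windows of build GRCm38.p6, each running from 250 bases before to 50 bases after a gene's start, were found for 8 of the 10 members. Of these 8 genes 3 held the core on either strand, namely Fibcd1, Pcp4 and Ccdc3. Counted by window, the core was present in 3 of the members' 9 windows (33.3%). It was present in 32.4% of all 32851 such windows, and in 59.2% of the 9690 windows with at least 60% GC. The windows of Fibcd1 and Ccdc3 had 74.3% and 66.3% GC, and that of Pcp4 had 48.7%. The 3 windows are shown because they are the marker promoters that hold the core of the receptor that is targeted in these mice. They lie at chr2:31845956-31846255 (minus strand) for Fibcd1, chr16:96467356-96467655 (plus strand) for Pcp4 and chr2:5137526-5137825 (plus strand) for Ccdc3. Each is written from 5′ to 3′ on the gene's strand, with every GCGTG and its reverse complement CACGC in capitals.
Fibcd1: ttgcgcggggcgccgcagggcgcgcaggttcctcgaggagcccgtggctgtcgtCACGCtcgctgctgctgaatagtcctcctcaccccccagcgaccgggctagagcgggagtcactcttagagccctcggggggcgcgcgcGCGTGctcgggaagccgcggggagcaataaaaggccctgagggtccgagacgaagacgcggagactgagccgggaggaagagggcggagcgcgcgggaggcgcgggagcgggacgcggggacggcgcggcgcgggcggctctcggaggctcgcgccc
Pcp4: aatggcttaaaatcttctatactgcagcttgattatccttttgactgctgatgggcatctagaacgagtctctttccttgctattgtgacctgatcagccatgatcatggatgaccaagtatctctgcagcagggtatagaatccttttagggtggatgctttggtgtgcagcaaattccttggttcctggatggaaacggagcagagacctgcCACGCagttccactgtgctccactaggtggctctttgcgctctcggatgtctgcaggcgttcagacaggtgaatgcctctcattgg
Ccdc3: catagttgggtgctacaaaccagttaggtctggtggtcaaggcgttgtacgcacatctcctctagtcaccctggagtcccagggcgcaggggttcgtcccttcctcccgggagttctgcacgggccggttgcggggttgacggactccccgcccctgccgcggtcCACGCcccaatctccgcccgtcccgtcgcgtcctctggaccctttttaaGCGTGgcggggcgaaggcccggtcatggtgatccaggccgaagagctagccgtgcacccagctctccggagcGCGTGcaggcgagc
Fibcd1 had 2 cores, Pcp4 had 1 and Ccdc3 had 3, and in Ccdc3 1 of them began 37 bases after the start. No other motif was searched, and a match is a stretch of letters rather than a measured binding site.

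The values are log2 signals, in which a difference of 1 is a doubling. Ahr itself read 6.62, 6.91 and 6.74 log2 in Ahr-KO hippocampi, against 7.68, 7.50 and 7.44 log2 in wild-type hippocampi. The groups did not overlap, and the difference did not pass over all genes (-0.78 ± 0.10 log2, SE; limma adjusted p = 0.320). Medians of the genes tested lay between 6.49 and 6.52 log2 on the 6 arrays, and 9 of the 10 members lay above the array's median on every array. Map3k15 lay below it on all 6, and so did the dimmer probe set of Ccdc3. Choroid plexus genes stood apart on 1 array of each genotype. Their list score, the mean over 9 genes of the log2 signal minus the gene's mean over the arrays, reached 1.24 for Ahr-KO array 1 and 0.72 for wild-type array 2, and lay between -0.56 and -0.44 for the other 4. Ahr-KO array 1 and wild-type array 2 are called the choroid-rich arrays. As a check of the labelled tissue, 7 of 7 other CA3 genes, 4 of 4 other CA1 genes, 4 of 6 other CA2 genes and 6 of 7 dentate granule genes averaged at or above the median of all genes. So did 5 of 5 thalamic, 5 of 5 neocortical and 8 of 8 interneuron genes, and this level check does not tell the hippocampus from neighbouring regions.

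None of the 10 markers passed the test between genotypes. With limma 0 of 10 had an adjusted p under 0.05, where 0% of all genes did, and 0 of 10 had an unadjusted p under 0.05, where 6.18% of all genes did. Of the members 4 averaged higher and 6 lower in Ahr-KO. Over all genes 50.7% averaged higher, and 43.0% of those at or above the median level did. Each field held both directions, CA2 through the small differences of Pcp4 (-0.01 log2) and Map3k15 (-0.05 log2). Without the choroid-rich arrays these were 0.0078 and 0.031 log2, and all 4 CA2 markers averaged higher in Ahr-KO. Their differences ran from -0.37 to 0.27 log2 with a median of -0.03, and over all genes the median was 0.00. The median size without sign was 0.16 log2 for the members and 0.07 log2 for all genes. The members also spread more within genotypes, with a median SD of 0.13 log2 against 0.11 log2 for all genes. For genes at or above the median level this SD was 0.10 log2. The 2 genotypes did not overlap for 1 member, Ccdc3, where 11.9% of all genes did not overlap. The 95% interval of the difference lay within 1.5-fold in either direction for 8 of the 10, where it did for 95.8% of all genes. Wfs1 and Amigo2 were the exceptions, with intervals reaching past 1.5-fold. In such bulk tissue fewer cells of a type and less RNA per cell cannot be told apart.

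**Figure D1:**
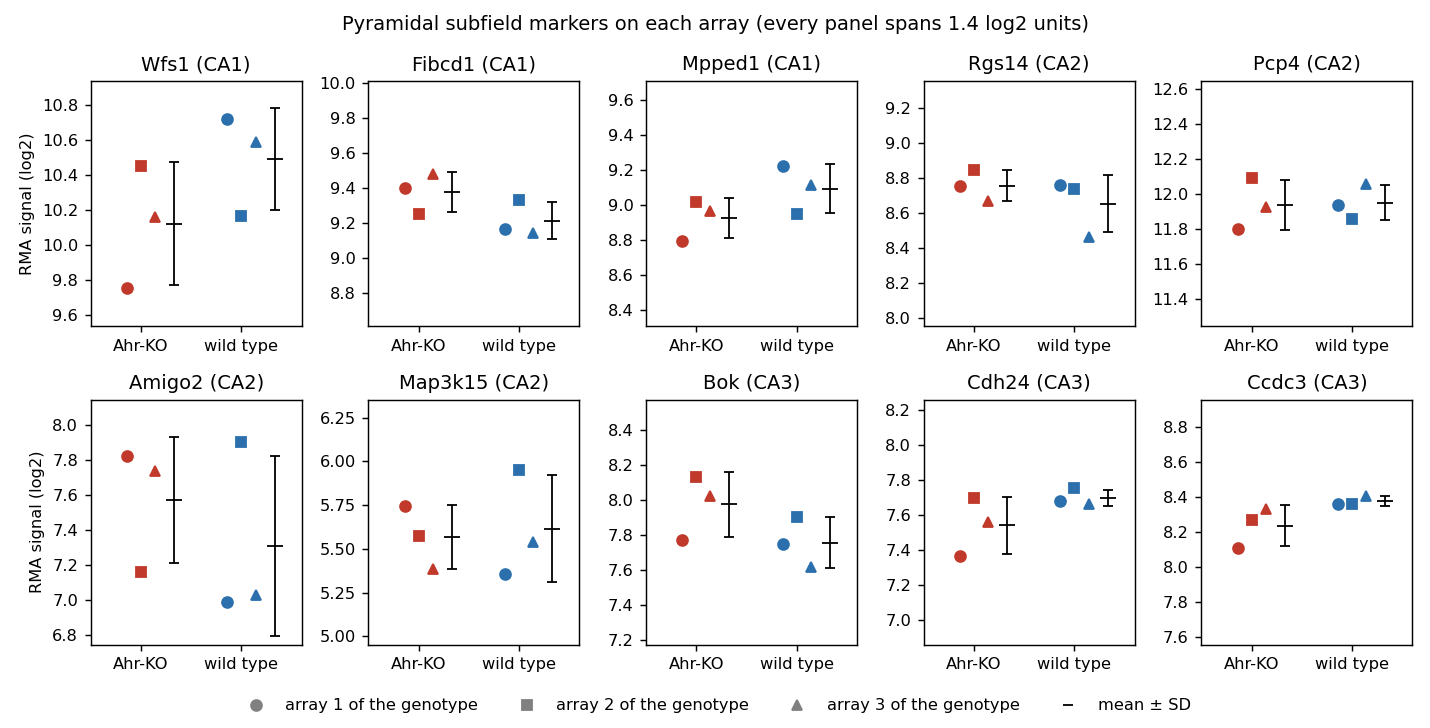
Log2 signal of each marker on each array, with the 3 Ahr-KO arrays (red) left of the 3 wild-type arrays (blue); symbols give the array number within the genotype, black bars the mean ± SD, and every panel spans 1.4 log2 units. The points of Wfs1 and Amigo2 are the most spread out of the 10, and only those of Ccdc3 do not overlap between genotypes.

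**Figure D2:**
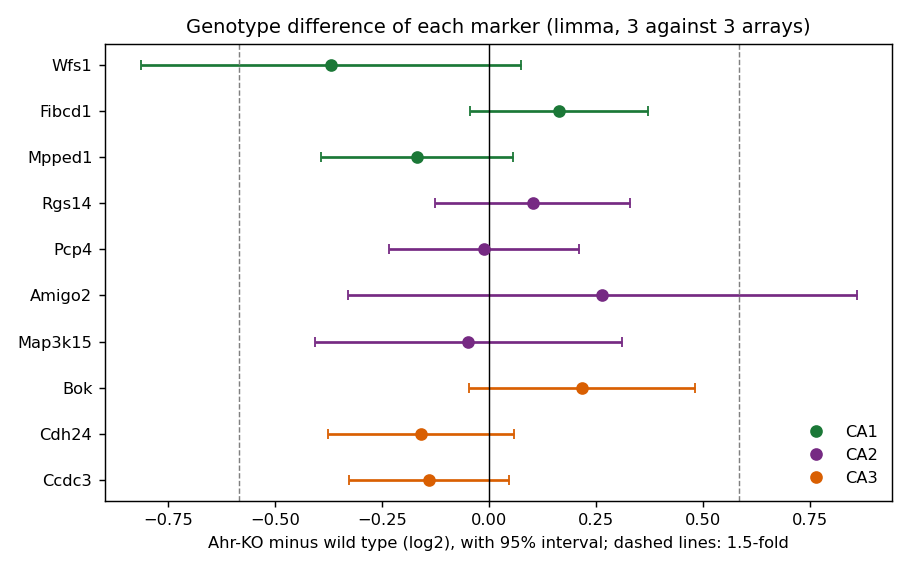
Difference of each marker, the Ahr-KO mean minus the wild-type mean on the log2 scale, with limma's 95% interval from 3 against 3 arrays; dashed lines mark 1.5-fold in either direction and colours the field. All 10 intervals include 0, and those of Wfs1 and Amigo2 reach past a dashed line.

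The CA1 markers pointed in different directions. Wfs1, which encodes wolframin, a membrane protein of the endoplasmic reticulum, read 9.75, 10.45 and 10.16 log2 in Ahr-KO and 10.72, 10.17 and 10.59 log2 in wild type. Ahr-KO array 1 was the lowest of the 6, and wild-type array 2 lay among the Ahr-KO values, so the groups overlapped. The mean was 10.12 ± 0.35 log2 in Ahr-KO and 10.49 ± 0.29 log2 in wild type (SD, n = 3 each), 1.29-fold lower in Ahr-KO (-0.37 ± 0.19 log2, SE; 95% interval -0.81 to 0.08; limma unadjusted p = 0.0922, adjusted p = 0.817). The size of this difference varied with single arrays. It was -0.19 log2 without Ahr-KO array 1, -0.54 without Ahr-KO array 2 and -0.53 without wild-type array 2, and -0.35 without the choroid-rich arrays. The lowest unadjusted p among these was 0.0219, without Ahr-KO array 2, with an adjusted p of 0.672, and over 15 alternatives the adjusted p of Wfs1 ran from 0.647 to 0.973.

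Mpped1, a metallophosphoesterase-domain protein, read 8.79, 9.02 and 8.96 log2 in Ahr-KO and 9.22, 8.94 and 9.11 log2 in wild type. It ordered the arrays much as Wfs1 did, with Ahr-KO array 1 lowest and wild-type array 1 highest, and it averaged 1.12-fold lower in Ahr-KO (-0.17 ± 0.10 log2, SE; 95% interval -0.39 to 0.06; adjusted p = 0.829). The difference was -0.10 without Ahr-KO array 1 and -0.10 without wild-type array 1. It was larger, -0.21, without Ahr-KO array 2, and -0.24 without wild-type array 2 (limma unadjusted p = 0.0449, adjusted p = 0.801). Fibcd1, a transmembrane receptor for acetylated sugars, read 9.40, 9.25 and 9.48 log2 in Ahr-KO, against 9.16, 9.33 and 9.14 log2 in wild type. Only wild-type array 2 reached into the Ahr-KO range, and Fibcd1 averaged 1.12-fold higher in Ahr-KO (0.16 ± 0.09 log2, SE; 95% interval -0.05 to 0.37; adjusted p = 0.823).

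Among the CA2 markers Amigo2, a leucine-rich adhesion protein used to label CA2 neurons, was the most variable. It read 7.82, 7.16 and 7.73 log2 in Ahr-KO and 6.99, 7.90 and 7.03 log2 in wild type. Ahr-KO arrays 1 and 3 and wild-type array 2 formed a high group and the other 3 arrays a low one, and wild type held both the lowest and the highest value. The difference was 0.27 ± 0.26 log2 (SE; 95% interval -0.33 to 0.86; adjusted p = 0.891). Its spread within genotypes, 0.44 log2, was larger than that of 99.5% of all genes. Wild-type array 2 moved the value most. Without it Amigo2 stood 0.56 log2 higher in Ahr-KO (unadjusted p = 0.0193, adjusted p = 0.775). The difference was 0.11 without wild-type array 1 and 0.13 without wild-type array 3.

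The other CA2 markers differed little. Rgs14, a regulator of G protein signalling that restrains synaptic plasticity in CA2, read 8.76, 8.85 and 8.67 log2 in Ahr-KO, against 8.76, 8.74 and 8.47 log2 in wild type (difference 0.10 ± 0.10 log2, SE; 95% interval -0.13 to 0.33; adjusted p = 0.892). The values overlapped and wild-type array 3 was the lowest, and without it the difference was 0.0069 log2. Pcp4, a small calmodulin-binding protein also made by other neurons such as Purkinje cells and granule cells, read 11.80, 12.09 and 11.93 log2 in Ahr-KO and 11.94, 11.86 and 12.06 log2 in wild type. Its genotype means were the closest of the 10, at 11.94 ± 0.14 log2 in Ahr-KO and 11.95 ± 0.10 log2 in wild type (SD, n = 3 each) (95% interval of the difference -0.23 to 0.21 log2; adjusted p = 0.992). Map3k15, a kinase of the stress-activated MAP kinase cascade, read 5.74, 5.58 and 5.38 log2 in Ahr-KO and 5.36, 5.95 and 5.54 log2 in wild type. Its genotypes overlapped throughout (-0.05 ± 0.16 log2, SE; 95% interval -0.41 to 0.31; adjusted p = 0.977).

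The CA3 markers also went both ways. Bok, a member of the BCL2 family of cell death regulators, read 7.77, 8.13 and 8.02 log2 in Ahr-KO, against 7.75, 7.91 and 7.62 log2 in wild type. Ahr-KO arrays 2 and 3 lay above every wild-type array and Ahr-KO array 1 among them, and Bok averaged 1.16-fold higher in Ahr-KO (0.22 ± 0.12 log2, SE; 95% interval -0.05 to 0.48; adjusted p = 0.817). Without Ahr-KO array 1 the difference was 0.32 log2 (unadjusted p = 0.0186, adjusted p = 0.812). Without the choroid-rich arrays it was 0.39 log2, the lowest unadjusted p of any member in the alternatives run (0.0075, adjusted p = 0.769). Without Ahr-KO array 2 it was 0.14 log2.

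Ccdc3, a secreted coiled-coil protein, read 8.11, 8.27 and 8.33 log2 in Ahr-KO, against 8.36, 8.36 and 8.41 log2 in wild type. All 3 Ahr-KO arrays were lower than all wild-type arrays, by a gap of 0.027 log2 between the nearest, and the difference was -0.14 ± 0.08 log2 (SE; 95% interval -0.33 to 0.05; adjusted p = 0.829). The spread was 0.12 log2 in Ahr-KO and 0.027 log2 in wild type (SD, n = 3 each). Without Ahr-KO array 1 the difference was -0.08 log2, and without Ahr-KO array 3 it was -0.19 log2. The second probe set of Ccdc3 read 5.64, 5.66 and 5.74 log2 in Ahr-KO and 5.59, 5.78 and 5.73 log2 in wild type, where the genotypes overlapped and differed by -0.02 log2. Cdh24, a type II cadherin, read 7.37, 7.69 and 7.56 log2 in Ahr-KO and 7.68, 7.75 and 7.66 log2 in wild type. Its wild-type arrays lay close together and Ahr-KO array 1 was lowest. The difference of Cdh24 was -0.16 ± 0.10 log2 (SE; 95% interval -0.38 to 0.06; adjusted p = 0.832). It was -0.07 without Ahr-KO array 1 and -0.05 without the choroid-rich arrays. Without Ahr-KO array 2 it was -0.24 log2 (limma unadjusted p = 0.0368, adjusted p = 0.680).

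The 3 markers whose promoter windows hold the receptor's core showed no common direction. Fibcd1 averaged higher in Ahr-KO, Ccdc3 lower, and Pcp4 differed by -0.01 log2, and none passed the test.

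Taken as a set, pairs of markers within a field were no closer across the 6 arrays than pairs between fields. Of the 12 pairs within a field 6 had a positive Pearson's r, with a median of 0.00 and a range of -0.83 to 0.98. Of the 33 pairs between fields 17 were positive, with a median of 0.01 and a range of -0.89 to 0.87. After each genotype's mean was subtracted, 7 of the 12 and 20 of the 33 were positive, with medians of 0.15 and 0.11. The CA3 pairs were then all positive, while CA1 and CA2 held both signs. Bok with Cdh24 had r = 0.91 (0.16 before), Bok with Ccdc3 0.53 (-0.16 before) and Cdh24 with Ccdc3 0.68. Each CA3 marker was lowest on array 1 among the Ahr-KO arrays. These correlations rest on 6 points that share genotype, dissection and array, and they are given as descriptions. Wfs1 and Mpped1 went together (r = 0.98, Spearman's rho = 0.94), and also after each genotype's mean was subtracted (r = 0.97). Fibcd1, the third CA1 marker, ran opposite to both (r = -0.83 with Wfs1 and -0.80 with Mpped1). It ran with the CA2 marker Amigo2 (r = 0.87). Amigo2 ran opposite to Wfs1 (r = -0.89) and to Mpped1 (r = -0.85). Leaving out the 2 arrays farthest from the median of Wfs1, which were Ahr-KO array 1 and wild-type array 1, gave r = 0.95 for Wfs1 with Mpped1 and -0.98 for Wfs1 with Amigo2. Among the CA3 markers Cdh24 and Ccdc3 had r = 0.82, which did not hold without Ahr-KO arrays 1 and 3 (r = -0.20). Of the 12 pairs with r beyond 0.7 in either direction, which were picked on arrays that include the choroid-rich ones, 11 kept their sign on the other 4 arrays. Several were weaker there, with r = 0.23 for Wfs1 with Pcp4 (0.74 over 6 arrays), 0.40 for Wfs1 with Ccdc3 (0.76) and -0.48 for Pcp4 with Amigo2 (-0.79). Cdh24 with Ccdc3 changed sign.

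**Figure D3:**
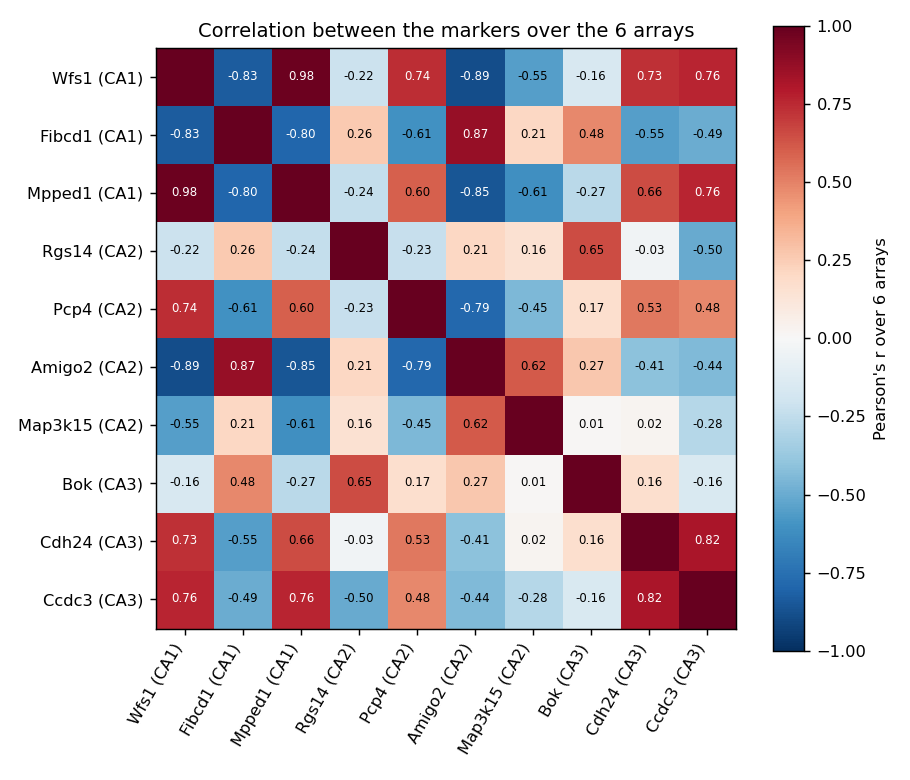
Pearson's r between the 10 markers over the 6 arrays, in the order CA1, CA2, CA3; red is positive and blue negative. Wfs1 and Mpped1 form a positive pair (0.98), and Amigo2 and Fibcd1 form another (0.87) that is negative with the first.

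Genes of other regions varied on the same arrays as Wfs1 and Amigo2. The 5 listed genes of ventral CA1, among them the serotonin receptor Htr2c and the peptide gene Grp, had list scores of 0.34, -0.27 and 0.08 in Ahr-KO and -0.30, 0.18 and -0.03 in wild type. The score was highest on Ahr-KO array 1, where Wfs1 was lowest, and lowest on wild-type array 1, where Wfs1 was highest (r = -0.89 over 6 arrays, and -0.71 without the choroid-rich arrays). Htr2c and Dcn had the widest ranges of the list, 1.27 and 1.26 log2. Htr2c is also abundant in choroid plexus and was highest on the choroid-rich arrays. By gene, r with Wfs1 was -0.98 for Htr2c, -0.92 for Grp, -0.89 for Gpr101, -0.71 for Dcn and 0.06 for Ccn3, so Ccn3 did not follow the score. The 5 neocortical genes had scores of -0.22, 0.20 and -0.13 in Ahr-KO and 0.23, -0.19 and 0.11 in wild type. The score ran with Wfs1 (r = 0.90) and opposite to Amigo2 (r = -0.96), through Lamp5, Tbr1 and Cux2 (r = 0.96, 0.90 and 0.93 with Wfs1). Rorb had r = 0.16 with Wfs1. Fezf2, a marker of deep cortical layers, read 9.75, 9.57 and 9.61 log2 in Ahr-KO and 9.55, 9.59 and 9.57 log2 in wild type, highest on Ahr-KO array 1 (r = -0.90). Wfs1 is also made in the neocortex, and all 5 of these genes averaged above the median of all genes. The choroid plexus score had r = -0.83 with Wfs1 over 6 arrays and -0.10 without Ahr-KO array 1 and wild-type array 2, the arrays where it was high. Ventral CA1 and neocortex were not alone in varying with Wfs1. Over 6 arrays r with Wfs1 was also -0.78 for the other CA2 score, 0.73 for microglia, 0.70 for thalamus and -0.70 for dentate granule genes. It was smallest in size for endothelium (-0.17), other CA1 (0.33) and striatum (0.41). The part of these other regions and cells in the genotype differences of Wfs1, Mpped1, Fibcd1 and Amigo2 was not tested.

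**Figure D4:**
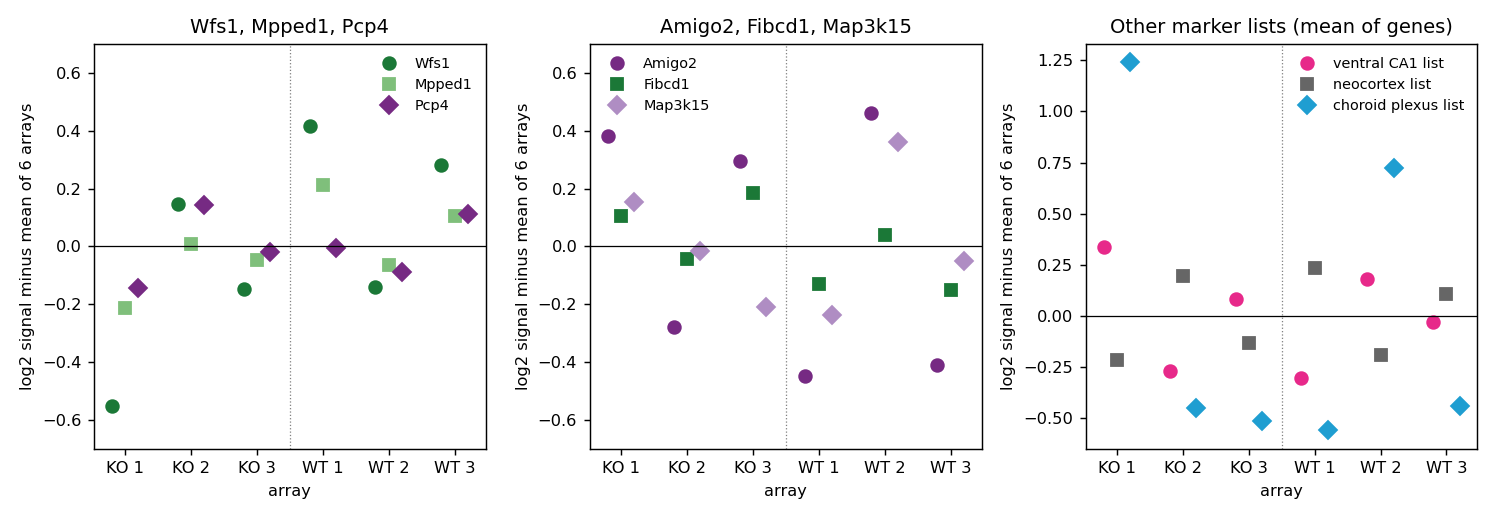
Log2 signal minus the gene's mean over the 6 arrays for Wfs1, Mpped1 and Pcp4 (left), Amigo2, Fibcd1 and Map3k15 (middle), and the same averaged over the genes of the ventral CA1, neocortex and choroid plexus lists (right, wider axis), with Ahr-KO arrays left of the dotted line and wild-type arrays right of it. Wfs1 is lowest on Ahr-KO array 1, where the ventral CA1 score (0.34) and the choroid plexus score (1.24) are highest.

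Further markers of the same fields were no clearer. Of 4 measured other CA1 genes 2 averaged higher and 2 lower in Ahr-KO, and 0 had an unadjusted p under 0.05. Tyro3, a receptor tyrosine kinase enriched in CA1, read 7.81, 8.32 and 8.07 log2 in Ahr-KO, against 8.63, 8.03 and 8.33 log2 in wild type, with Ahr-KO array 1 lowest and wild-type array 1 highest as for Wfs1 (-0.26 ± 0.17 log2, SE; adjusted p = 0.841). Pou3f1, a POU transcription factor, differed by 0.09 ± 0.09 log2 (SE), and Ndst4, a heparan sulphate enzyme, by 0.01 ± 0.11. The 5 ventral CA1 genes had 0 with an unadjusted p under 0.05, with Gpr101 at 0.12 ± 0.08 log2 (SE), Htr2c at 0.37 ± 0.28 and Grp at 0.14 ± 0.16. Htr2c read 10.04, 8.93 and 9.45 log2 in Ahr-KO and 8.77, 9.52 and 9.03 log2 in wild type, highest on the choroid-rich arrays.

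Of 6 measured other CA2 genes 2 averaged higher and 4 lower. An unadjusted p under 0.05, which 6.18% of all genes had, was found for 1 of the 6. That gene was Nr3c2, the mineralocorticoid receptor, which CA2 neurons make at high level. It read 10.10, 9.87 and 9.95 log2 in Ahr-KO, against 9.57, 9.89 and 9.61 log2 in wild type, where wild-type array 2 reached into the Ahr-KO range (0.28 ± 0.11 log2, SE; limma unadjusted p = 0.0279, adjusted p = 0.797). Avpr1b, the vasopressin receptor of CA2, read 5.45, 5.41 and 5.40 log2 in Ahr-KO and 5.48, 5.57 and 5.62 log2 in wild type. It did not overlap between genotypes, where 11.9% of all genes did not. The difference of Avpr1b was -0.13 ± 0.07 log2 (SE; adjusted p = 0.820), at signals below the median of all genes. Necab2, a calcium-binding protein, differed by -0.15 ± 0.11 log2.

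All 7 other CA3 genes were measured, and 6 averaged higher and 1 lower, where 50.7% of all genes averaged higher. Of the 7 genes 0 had an unadjusted p under 0.05. Coch, a secreted matrix protein, differed by -0.19 ± 0.13 log2 (SE), the adhesion protein Nectin3 by 0.07 ± 0.11 and the neuropeptide Y receptor Npy2r by 0.10 ± 0.16. The score of these 7 genes was -0.09 on Ahr-KO array 2 and 0.05 and 0.08 on the other Ahr-KO arrays, and 0.17 on wild-type array 2 against -0.10 and -0.11 on the other wild-type arrays. Amigo2 was high on the same 3 arrays (r = 0.96 over 6 arrays, and 0.99 without the choroid-rich arrays). With the score of the other CA2 genes, its own field, Amigo2 had r = 0.86 over 6 arrays. The CA3 markers among the members followed the other CA3 score less closely, with r = 0.28 for Bok, -0.16 for Cdh24 and -0.20 for Ccdc3.

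A list of genes of pyramidal and excitatory neurons, not confined to pyramidal cells, averaged higher in Ahr-KO for 6 of 7. Over all genes 50.7% averaged higher. Of the 7 genes 0 had an unadjusted p under 0.05. Hpca, the calcium sensor hippocalcin, had the lowest p of these (0.23 ± 0.11 log2, SE; adjusted p = 0.817), followed by the transcription factors Zbtb20 (0.20 ± 0.12) and Neurod2 (0.14 ± 0.10). Of 7 dentate granule genes 3 had an unadjusted p under 0.05, where 6.18% of all genes did, all 3 higher in Ahr-KO and none past the threshold over all genes. These were Stxbp6 (0.25 ± 0.07 log2, SE), the channel Trpc6 (0.28 ± 0.09) and the granule cell transcription factor Prox1 (0.28 ± 0.10). The median difference was -0.03 log2 for the 10 pyramidal markers and 0.15 log2 for the 7 dentate genes. It was 0.10 log2 for the 7 pyramidal and excitatory neuron genes and 0.07 log2 for the 7 other CA3 genes. The differences between these lists were not tested.

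The genes closest in pattern to each marker were looked up among the 10386 or 10387 other genes at or above the median level, as a description. With 6 points very high values arise easily, and 92 genes reached r over 0.95 with Wfs1 and 9 with Map3k15. The closest were Acsl5, an acyl-CoA synthetase, for Wfs1 (r = 0.992), the caveolin Cav2 for Mpped1 (r = 0.998) and the monocarboxylate transporter Slc16a1 for Fibcd1 (r = 0.992). For CA2 they were Pygb, a glycogen phosphorylase, for Rgs14 (r = 0.998), the tetraspanin Cd53 for Pcp4 (r = 0.992), Hectd2, a ubiquitin ligase, for Amigo2 (r = 0.992) and the mitochondrial ribosomal protein Mrps16 for Map3k15 (r = 0.987). For CA3 they were the transcriptional corepressor Ski for Bok (r = 0.984), the mitochondrial ribosomal protein Mrps12 for Cdh24 (r = 0.997) and the deubiquitinase Usp7 for Ccdc3 (r = 0.993). None of these 10 genes is another member, and none passed the test between genotypes, with unadjusted p from 0.0709 to 0.875.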

How the data were processed

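The deposited values are log2 signals of 41345 probe sets on 6 arrays, made with RMA in Affymetrix Expression Console per the submitters' processing notes, without versions. RMA equalises the distributions of the arrays, so a shift shared by all genes is not visible, and it tends to understate fold changes. The sources used here do not give the build and annotation behind the probe sets. Of these rows 23521 had 1 gene symbol in the platform annotation, 1814 several and 16010 none. Symbols were updated by Entrez ID to RefSeq (GRCm38.p6) for 23328 of them. For the 1082 genes with several probe sets the brightest was used. All 22180 genes were fitted in R 4.3.3 with limma 3.58.1 (linear model and empirical Bayes variances, two-sided, no covariate, Benjamini-Hochberg over all genes, threshold 0.05; 4 residual and 4.33 prior degrees of freedom). No filter on dim genes was applied. The number of arrays limits the precision, and an exact permutation test of 3 against 3 cannot reach the threshold, so none was run. Every array is a separate mouse by its label. Deviations of same-numbered arrays correlated across genes at r = -0.15, -0.22 and 0.05, so the numbers were not taken as pairs.

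The 10 members and the 18 marker lists (104 of 110 entries measured) were chosen with earlier results of these data known. Genes were named by rule. The rule takes the members, Ahr, up to 3 genes per list of other pyramidal or dentate genes by lowest unadjusted p, and the gene with the highest r to each member, passing over odorant and pheromone receptors, small RNAs and predicted genes. The rule also takes genes of other cell types where their list moved with a member, which is a choice made on the correlations. Dcn and Ccn3 of the ventral CA1 list were named beyond the rule. Lists of interneurons, glia, microglia, endothelium, thalamus and striatum were also computed. Alternatives covered the variance model, array weights, normalization, a filter on dim genes, the use of several probe sets per gene, a replicate block and leaving out 1 array or both choroid-rich arrays. Promoter windows are RefSeq's. Figures were drawn with matplotlib 3.10.9.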

Additional observations from a re-analysis of the deposited data

How the results depend on the processing

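Over 15 alternatives no member passed an adjusted p under 0.05, and 143 of 149 member differences kept their sign. The intensity trend, the filter on dim genes, the test of every probe set and the replicate block leave the difference itself unchanged. No sign could turn in those settings, nor for members with 1 probe set when probe sets were averaged. The 6 that did not keep their sign belonged to Pcp4 and Map3k15, and all arose when arrays were left out. Leaving out single arrays gave Pcp4 differences from -0.0875 to 0.0559 log2 and Map3k15 differences from -0.18 to 0.12 log2, and without the choroid-rich arrays they were 0.0078 and 0.031 log2. The number of members with an unadjusted p under 0.05 was 0 with all arrays, where 6.18% of all genes had one, and 0 to 4 when 1 array was left out, where 5.07% to 7.22% did. The 4 arose without wild-type array 2 (Wfs1, Mpped1, Amigo2 and Bok; 6.22% of all genes), 3 without Ahr-KO array 2 (Wfs1, Fibcd1 and Cdh24; 7.22%) and 1 without Ahr-KO array 1 (Bok; 5.95%). It was 3 without the choroid-rich arrays (Wfs1, Amigo2 and Bok; 6.05%) and 1 with quantile normalization (Bok, unadjusted p = 0.0475; 5.95%). Over all genes 2 passed when the variance model had an intensity trend. Among the 11090 genes at or above the median level 785 (7.08%) had an unadjusted p under 0.05, against 1371 (6.18%) of all 22180 genes. The causes of these changes were not tested. With the replicate block 1122 genes had an unadjusted p under 0.05 and the block changed no member's call. Without detection calls the signal over background of Map3k15 and of the second Ccdc3 probe set is unknown.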

Other observations

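Among the lists of other cells an unadjusted p under 0.05 was counted, which 6.18% of all genes had. Interneuron genes (8 measured) had 1 higher and 1 lower in Ahr-KO, astrocyte genes (7) had 0 higher and 1 lower, and endothelial genes (7) had 2 higher and 0 lower. The genotypes did not overlap for 4 of 8 interneuron genes, where 11.9% of all genes did not. Oligodendrocyte (6), microglial (7), choroid plexus (9), thalamic (5), striatal (4) and neocortical (5) genes had 0, and 0 genes of any list passed over all genes with limma. The median differences were 0.10 log2 for interneurons, -0.06 for astrocytes and 0.04 for endothelium, -0.02 for oligodendrocytes, 0.0033 for microglia and 0.26 for choroid plexus. They were 0.05 for thalamus, 0.06 for striatum and -0.14 for neocortex.

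Oligodendrocyte genes were lowest on Ahr-KO array 1, with a score of -0.33, against 0.18 and 0.12 on the other Ahr-KO arrays and -0.05 to 0.08 on the wild-type arrays. Wfs1, Mpped1, Pcp4, Cdh24 and Ccdc3 were also lowest on that array, and over 6 arrays r with the oligodendrocyte score was 0.66 for Wfs1, 0.59 for Mpped1, 0.64 for Pcp4, 0.74 for Cdh24 and 0.64 for Ccdc3. Cdh24 and Ccdc3 had r = 0.84 and 0.92 with the astrocyte score, which was lowest (-0.10) on the same array. All of these r values include Ahr-KO array 1, by which the markers were picked, and r without that array was not computed. They therefore do not show that the markers followed the oligodendrocyte or astrocyte score on the other arrays. The part of these cells in the values of the markers was not tested.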
